A study of Homo sapiens with 6 samples.

Results

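The HOX cluster genes are the homeodomain transcription factor genes of the HOXA, HOXB, HOXC and HOXD clusters. They were chosen by symbol, as probe sets listed with 1 gene symbol made of HOXA, HOXB, HOXC or HOXD followed by digits only, and 27 of the 18404 named genes met that rule. The RefSeq gene table lists 39 HOX genes. All 10 of the HOXB cluster and all 9 of the HOXD cluster were measured, with 7 of 9 in the HOXC cluster and 1 of 11, HOXA2, in the HOXA cluster. HOXC4 and HOXC6 share a probe set that carries both symbols, and they and the other 10 HOXA genes were not analysed here. Each of the 27 genes had a single probe set.

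HOX genes lie in clusters whose order along the chromosome follows the order in which they are used along the body axis, from anterior (paralogue groups 1 to 3) through central (4 to 8) to posterior (9 to 13). Their products bind DNA together with cofactors of the TALE family such as PBX and MEIS proteins, and adult epithelia keep part of the embryonic pattern as a record of position. Polycomb complexes hold unused parts of a cluster silent, trithorax complexes keep used parts active, and retinoic acid is a classical inducer of the anterior end. In the prostate, HOXB13 is the best known member, an androgen receptor partner of luminal cells.

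RNA was measured in PrEC, an immortalized line derived from normal prostate epithelium, on 6 expression arrays. The 3 shPKCi samples carried a hairpin against PKCλ/ι, an atypical protein kinase C of epithelial polarity encoded by PRKCI, and the 3 shNT samples carried the hairpin named shNT. Both lines received the same PrEGM medium and were harvested untreated, 48 hours after they were plated, and the series calls the samples of a line biological replicates. How many hairpins or clones each line holds was not given in the sources used here, and p-values measure the spread between these samples. PRKCI had intensities of 800.3, 810.2 and 753.8 in the shPKCi arrays, against 1635, 1428 and 1843 in the shNT arrays, with a log2 fold change of -1.05 (SE 0.11, limma adjusted p = 0.000279).

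Median intensity over the named genes lay between 68.1 and 70.0 in the shPKCi arrays and between 70.4 and 73.6 in the shNT arrays. The array of shNT replicate 2 stood apart, with correlations of 0.974 to 0.989 with the other arrays, against 0.982 to 0.996 among the other 5. It also had the highest median intensity, 73.6, and the narrowest interquartile range of log2 signal, 2.81 against 2.98 to 3.01 in the other 5. It gave the highest of the 3 shNT values for 14 of the 27 HOX genes and the lowest for 5. Whether these counts differ from those over all genes was not tested. The basal keratin gene KRT5 lay at the 99.5th percentile of signal in shPKCi and the 99.7th in shNT, and KRT15 at the 30.5th and 37.9th. Of 13 fibroblast and smooth muscle markers, 3 fell (ACTA2, FAP and COL1A1), none rose and 10 did not pass. The summed intensity of the 13 was 803 to 827 in the shPKCi arrays and 1387 to 1530 in the shNT arrays. Mean intensities in shPKCi and shNT were 273 and 567 for FAP, 74.7 and 331 for ACTA2 and 95.0 and 134 for COL1A1. In shPKCi FAP lay at the 79.4th percentile, ACTA2 at the 52.1st, COL1A1 at the 58.4th, DCN at the 3.15th and LUM at the 1.29th, and in shNT they lay at the 89.997th, 82.6th, 66.0th, 3.80th and 2.51st. Of the 13, 9 in shPKCi and 9 in shNT lay above background, taken as the 95th percentile of olfactory receptor genes. Of 9 luminal markers 1 fell, ACP3, and their sums were 2774 to 2861 in shPKCi and 2041 to 2719 in shNT. Most of these sums came from KRT8 and KRT18, with mean intensities of 1250 and 1295 in shPKCi and 991 and 1085 in shNT. Neither keratin passed (limma adjusted p = 0.0624 and 0.218). Of the 9 log2 fold changes, 5 were positive and 4 negative. Over all genes 9.55% were higher and 8.95% lower at a limma adjusted p under 0.05. Of the basal markers 6 of 10 fell and none rose, of 7 endothelial markers 1 was called lower (KDR) and of 9 blood markers 1 higher (CD3D), both of them below background in both lines, and of 7 neuroendocrine markers none passed limma or had an unadjusted p under 0.05. The part of these shifts in the HOX values was not tested. In RNA from a whole culture, fewer cells of a type and less RNA per cell cannot be told apart.

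Signal from the HOX genes was low to moderate in both lines. The values carry no detection calls, so the 340 measured olfactory receptor genes, a family that prostate epithelial cells are not known to use, served as a gauge of background. Their 95th percentile was a log2 signal of 4.97 in shPKCi and 5.03 in shNT. Mean signal lay above that level for 20 of 27 HOX genes in shPKCi and 20 in shNT, or 74.1% in each, where 70.9% and 70.8% of all genes did. The share was thus near that of all genes. Probes differ in how strongly they bind, so the genes are placed against these levels and not ranked against each other.

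The genes above background came from all the clusters and from all positions. In the HOXB cluster they were 8 of 10 genes in shPKCi and 7 in shNT, in the HOXD cluster 8 of 9 and 7, and in the HOXC cluster 3 of 7 and 5. HOXA2, the hindbrain and branchial arch gene, was above it in both. By position, 5 of 6 anterior, 6 of 9 central and 9 of 12 posterior genes exceeded the level, with the same counts in both lines. HOXB6 and HOXD12 exceeded it in shPKCi and not in shNT, HOXC8 and HOXC11 in shNT and not in shPKCi, and 18 genes did so in both. The mean of HOXB6 was 5.68 in shPKCi and in shNT just under the level. HOXD12 had 5.07 in shPKCi and 4.93 in shNT, HOXC8 had 4.89 and 5.06, and HOXC11 had 4.84 and 5.06, all near the level.

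The genes with firmer signal were in the HOXB and HOXD clusters. Above the 99th percentile of olfactory receptor genes, at 5.94 in shPKCi and 5.90 in shNT, 8 of 27 HOX genes remained in shPKCi and 9 in shNT. Both levels lay below the median of all genes, so most of all genes exceeded them. In both lines these included HOXB2, HOXB3, HOXB7, HOXB9, HOXD1, HOXD4, HOXD11 and HOXD13. HOXD9 also passed in shNT, just above the level and at the 44.8th percentile of all genes. Above the median of all genes (6.11 in shPKCi and 6.16 in shNT) the counts were 6 and 4, the 4 in shNT being HOXB7, HOXB9, HOXD1 and HOXD4. HOXB7, a central gene often studied in epithelial cancers, lay at the 61.9th percentile of all genes in shNT. No HOXC gene passed the 99th percentile level in either line.

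HOXB5, HOXB13, HOXC5, HOXC9 and HOXD3 were not above the olfactory receptor level in either line. HOXB13 had intensities of 30.2, 29.9 and 22.6 in the shPKCi arrays, against 25.5, 29.3 and 31.7 in the shNT arrays, and the groups overlapped. Its log2 fold change was -0.07 (SE 0.14, limma adjusted p = 0.791). The luminal product gene KLK3 lay at the 30.9th percentile in shPKCi and the 34.5th in shNT.

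Homeobox genes outside the clusters place a limit on these readings. Of 15 regionalising homeobox genes (the CDX, GBX, OTX and EN genes, with GSX1, GSX2, PDX1, MNX1, MEOX1, MEOX2), most of them known from gut, brain or pancreas, 14 exceeded the olfactory receptor level in shPKCi and 14 in shNT. The median of their means, 5.942 in shPKCi and 5.999 in shNT, also lay above the 99th percentile of olfactory receptor genes (5.937 and 5.896). Their means reached 7.18 in shPKCi and 7.17 in shNT, at GSX2, a forebrain gene, and 0 of 27 HOX genes lay above that in either line. A signal above the olfactory receptor level is therefore no proof of transcription for a HOX gene. The base composition of the probes was not used here, and its part in the signal was not tested.

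**Figure D1:**
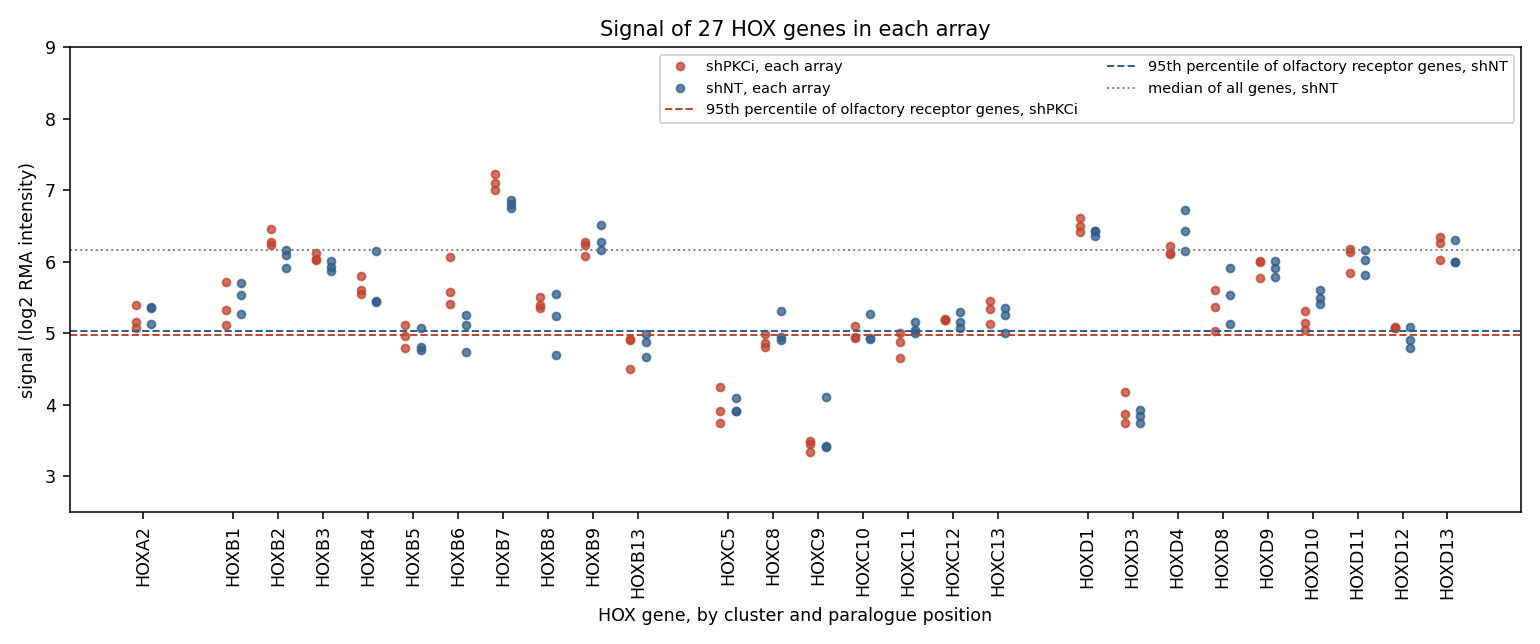
Log2 RMA intensity (vertical axis) of the 27 HOX genes (horizontal axis, by cluster and position) in each of the 3 shPKCi arrays (red, left of each pair) and the 3 shNT arrays (blue). Dashed lines mark the 95th percentile of olfactory receptor genes, 4.97 in shPKCi and 5.03 in shNT, and the dotted line the median of all genes in shNT, 6.16; most HOX genes lie between the levels.

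HOXB6 was the single HOX gene that passed the test, and it was higher in shPKCi. Its measured ratio was 1.57-fold over a shNT mean that lay just under the background level, so the size of the change is uncertain. Of 27 HOX genes, 1 (3.7%) was higher at a limma adjusted p under 0.05, where 9.55% of all genes were. None was lower, where 8.95% of all genes were. These shares depended on signal. Among genes above the median signal, tested alone, 21.6% were higher and 17.2% lower. Of the 340 olfactory receptor genes 0.294% were higher and none lower. Most HOX genes lay below the median of all genes, and the part of dim signal in their share was not tested. In numbers, 1758 of all genes were higher and 1648 lower, and under median centring 2170 were higher and 1321 lower. At an unadjusted p under 0.05, 3 HOX genes were higher and 1 lower, where 15.0% and 14.7% of all genes were. The median log2 fold change was 0.01 over the HOX genes and -0.02 over all genes. Values of the groups did not overlap in 5 HOX genes (18.5%), 4 higher and 1 lower in shPKCi, where 35.7% of all genes did not overlap, 18.0% higher and 17.8% lower.

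HOXB6, a central gene of the HOXB cluster that is also used in blood progenitors, had intensities of 42.5, 47.7 and 66.9 in the shPKCi arrays, against 34.5, 26.6 and 37.98 in the shNT arrays. All shPKCi values were above all shNT values, with the highest in shPKCi replicate 3 and the lowest in shNT replicate 2. The means were 5.68 ± 0.34 log2 units in shPKCi and 5.03 ± 0.27 in shNT (SD, n = 3 each), a log2 fold change of 0.65 (SE 0.18, 95% interval 0.24 to 1.06, limma adjusted p = 0.035). The call rested on single arrays. It was lost without shPKCi replicate 2 (adjusted p = 0.0707), shPKCi replicate 3 (0.107), shNT replicate 1 (0.0738) or shNT replicate 2 (0.0827), with log2 fold changes of 0.46 to 0.79 over the 6 fits that left out 1 array.

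HOXB7 and HOXB2 lay higher in every shPKCi array without passing the test. HOXB7 had intensities of 128.1, 136.6 and 149.6 in shPKCi, against 108.2, 116.1 and 112.1 in shNT. The groups were apart, and the log2 fold change was 0.30 (SE 0.10, 95% interval 0.08 to 0.52, limma adjusted p = 0.0654). Its adjusted p was 0.0452 when shNT replicate 2 was left out, 0.0285 under median centring, 0.0425 after cyclic loess and 0.0214 with array weights. It was 0.039 when genes below the olfactory receptor level were left out, and 0.0265 when genes below the median signal were. HOXB7 did not pass without shPKCi replicate 1, 2 or 3 or shNT replicate 1 or 3 (adjusted p from 0.0885 to 0.216). With a replicate block its adjusted p was 0.113.

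HOXB2, an anterior gene of hindbrain patterning, had intensities of 87.9, 77.4 and 75.5 in shPKCi, against 68.0, 60.3 and 71.4 in shNT. Its lowest shPKCi value lay just above its highest shNT value, and the log2 fold change was 0.27 (SE 0.11, limma adjusted p = 0.125). HOXB3, its neighbour, gave 66.0, 65.3 and 69.6 in shPKCi, against 58.6, 60.5 and 64.7 in shNT (log2 fold change 0.13, limma adjusted p = 0.418). HOXB4 and HOXB5, which lie between HOXB3 and HOXB6, overlapped between the lines, with log2 fold changes of -0.03 and 0.07. HOXB1 had 52.4, 40.0 and 34.6 in shPKCi, against 38.5, 52.2 and 46.2 in shNT, and like HOXB9 and HOXB13 it overlapped. The log2 fold changes of HOXB1, HOXB9 and HOXB13 were -0.12, -0.12 and -0.07. Over the 10 HOXB genes the median log2 fold change was 0.10, and 6 of 10 were positive.

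HOXB8, the remaining central HOXB gene, varied among the shNT arrays. Its intensities were 40.7, 45.3 and 42.2 in shPKCi, against 46.6, 26.0 and 37.8 in shNT. The shNT values spanned those of shPKCi, with shNT replicate 2 the lowest of all 6. The log2 fold change was 0.26 (SE 0.18, limma adjusted p = 0.417), and without that array it was 0.02.

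In the HOXD cluster no gene passed, and HOXD10 came nearest. HOXD10, a posterior gene of limb and motor neuron patterning, had intensities of 35.2, 39.6 and 32.9 in shPKCi, against 42.6, 48.5 and 44.9 in shNT. Every shPKCi value was below every shNT value. The log2 fold change was -0.34 (SE 0.11, 95% interval -0.58 to -0.10, limma adjusted p = 0.0558). It passed where genes below the olfactory receptor level were left out before the test (adjusted p = 0.0343). It did not pass in any of the fits without 1 array (adjusted p from 0.065 to 0.187). HOXD4 had 69.0, 74.4 and 69.8 in shPKCi, against 85.8, 105.2 and 70.9 in shNT, where the lowest shNT array lay within the shPKCi range (log2 fold change -0.28, limma adjusted p = 0.22). The other 7 HOXD genes overlapped between the lines. The posterior genes HOXD9, HOXD11, HOXD12 and HOXD13 had log2 fold changes of 0.03, 0.05, 0.14 and 0.12, HOXD1 and HOXD3 of 0.10 each, and HOXD8 of -0.19.

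The promoter of HOXD10 is shown because HOXD10 had the smallest p among the HOX genes lower in shPKCi and CpG-rich promoters are the usual sites of Polycomb control at HOX genes. These are the 250 bases before its start on the plus strand of GRCh38.p14, chr2:176116528-176116777, from RefSeq, with each CG in capitals.
HOXD10: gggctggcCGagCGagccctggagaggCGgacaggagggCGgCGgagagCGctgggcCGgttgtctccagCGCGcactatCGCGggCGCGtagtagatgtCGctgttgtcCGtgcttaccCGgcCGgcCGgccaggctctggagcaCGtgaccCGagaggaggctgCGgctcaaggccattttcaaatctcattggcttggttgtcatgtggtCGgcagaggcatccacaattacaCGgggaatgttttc
It holds 23 CG, and 25.8% of the 35116 promoter windows of the same length hold as many or more. Among the HOX genes 11 of 27 had a window in the table, too few for a statement over the genes, and their CG counts ran from 4 in HOXD4 to 31 in HOXD1, against a median of 11 over all windows. The letters TATAAA, read on both strands, were in 1 of those 11, HOXD13, and in 10.7% of all windows.

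No HOXC gene passed the test, and neither did HOXA2. The 7 HOXC genes had a median log2 fold change of -0.05, from -0.22 to 0.10, and none had groups apart. HOXC11, a posterior gene, gave 32.1, 29.4 and 25.1 in shPKCi, against 35.7, 32.9 and 31.9 in shNT, and the highest shPKCi value reached into the shNT range (log2 fold change -0.22, limma adjusted p = 0.239). HOXC13, a gene of hair and nail epithelium, had a log2 fold change of 0.10, and HOXC8, HOXC9, HOXC10, HOXC12 and HOXC5 had -0.17, -0.22, -0.05, 0.01 and -0.01. HOXA2 had 33.7, 35.6 and 42.1 in shPKCi, against 35.0, 41.0 and 41.1 in shNT (log2 fold change -0.07, limma adjusted p = 0.745).

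The intervals bound what could have been missed. Over the 26 HOX genes that did not pass, log2 fold changes ran from -0.34 to 0.30, and their 95% intervals reached no further than -0.64 and 0.67. A change beyond 1 log2 unit lay outside the interval of each of these 26 genes on the log2 RMA scale, which compresses the differences of dim probe sets. The median standard error was 0.13 for HOX genes and 0.11 for all genes. By position, the median log2 fold change was 0.10 for the anterior genes, -0.01 for the central and -0.02 for the posterior genes.

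**Figure D2:**
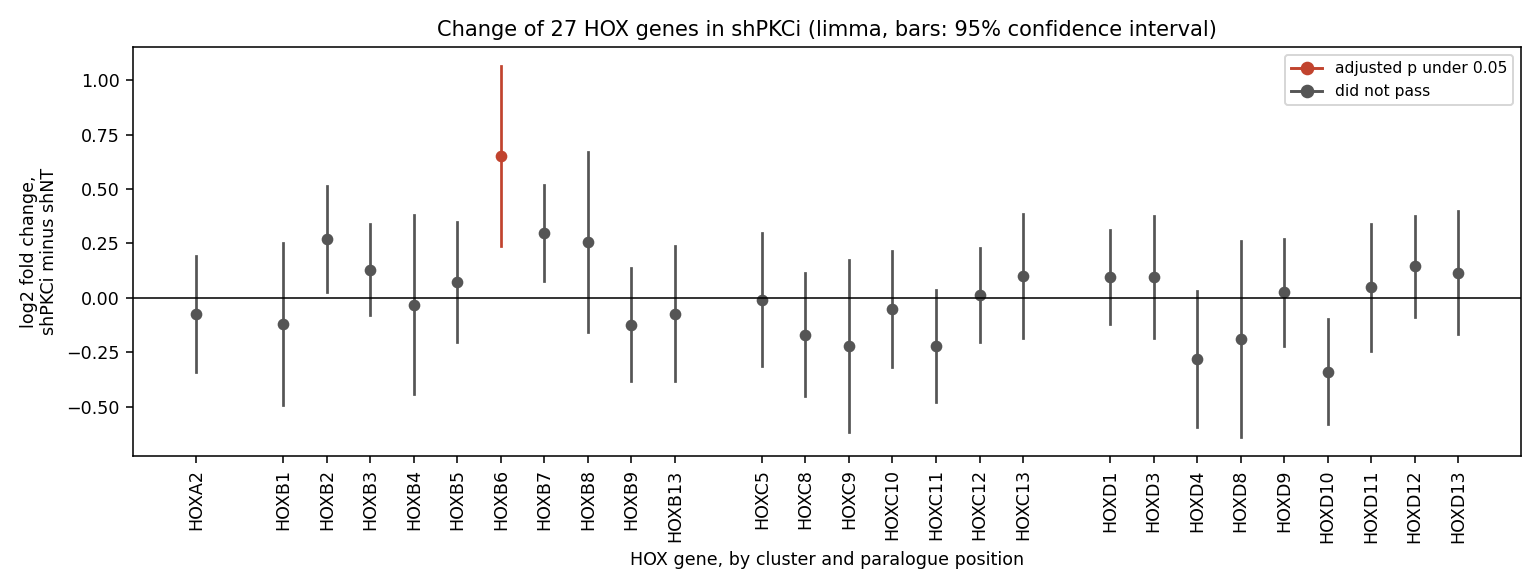
Log2 fold change, shPKCi minus shNT (vertical axis), of the 27 HOX genes (horizontal axis), with bars for the 95% interval from limma. HOXB6, in red at 0.65, is the single gene past the threshold, and the other 26 lie between -0.34 and 0.30.

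Of the TALE cofactors, which join HOX proteins on DNA, 9 of 11 listed were measured. MEIS2 rose, PBX3 fell and 7 did not pass, with a median log2 fold change of -0.15. With 1 call of 9 in each direction, the shares were near the 9.55% higher and 8.95% lower of all genes. MEIS2 had intensities of 55.2, 65.0 and 67.8 in shPKCi, against 46.2, 42.7 and 52.9 in shNT. The groups were apart, and MEIS2 was higher by 0.41 on the log2 scale (SE 0.12, limma adjusted p = 0.0426). This call was lost without shPKCi replicate 2 (adjusted p = 0.148), shPKCi replicate 3 (0.147), shNT replicate 1 (0.113) or shNT replicate 2 (0.0777).

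PBX3 had 194.3, 199.6 and 193.3 in shPKCi, against 244.8, 239.7 and 270.4 in shNT. The shPKCi values were close together and all below shNT, a log2 fold change of -0.36 (SE 0.09, limma adjusted p = 0.0257). The call held without shNT replicate 2 (adjusted p = 0.014). It was lost without any other single array, namely shPKCi replicates 1, 2 and 3 and shNT replicates 1 and 3 (adjusted p from 0.0547 to 0.0903), and under median centring (0.0618). MEIS1, a prostate cofactor of HOXB13, was at 23.6, 25.4 and 27.7 in shPKCi, against 26.2, 26.1 and 25.4 in shNT, below background in both lines, with overlapping groups and a log2 fold change of -0.02 (limma adjusted p = 0.926).

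Of the non-coding genes of the clusters 6 of 26 listed were measured, and none passed limma. At an unadjusted p under 0.05, 0 were higher and 1, HOXA-AS2, was lower (limma adjusted p = 0.116), and its means were below background in both lines. HOXB-AS3, an antisense gene that overlaps the HOXB6 interval, had 79.2, 79.1 and 70.8 in shPKCi, against 72.1, 77.7 and 70.3 in shNT. The groups overlapped and the log2 fold change was 0.06 (SE 0.10, limma adjusted p = 0.762). The strand of the probes was not given in the sources used here, and HOXB6 and HOXB-AS3 transcripts share the locus.

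The clusters also hold microRNA genes, of which MIR10A, MIR10B, MIR196A1 and MIR196A2 had probe sets. MIR196A1, between HOXB9 and HOXB13, had 49.2, 49.4 and 45.9 in shPKCi, against 49.7, 57.7 and 48.1 in shNT, with overlapping groups (log2 fold change -0.10, limma adjusted p = 0.586). The other 3 were not above the olfactory receptor level in either line. A probe set of a microRNA gene can read its longer transcripts and need not follow the mature microRNA. The mature sequences are shown because miR-196a, which is known to direct cleavage of HOXB8 mRNA, is made from both MIR196A1 in the HOXB cluster and MIR196A2 in the HOXC cluster, so that neither gene alone sets its level. They are from RefSeq on GRCh38.p14, with bases 2 to 8, the seed, in capitals, at chr17:48632532-48632553 (minus strand) and chr12:53991762-53991783 (plus strand) for miR-196a-5p and at chr17:48579904-48579926 (minus strand) for miR-10a-5p.
hsa-miR-196a-5p: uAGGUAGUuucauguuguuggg
hsa-miR-10a-5p: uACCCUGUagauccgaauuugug
The seeds of the pair differ.

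Among the listed genes in or near the clusters that are not HOX genes, all that passed were lower in shPKCi. Of 19 measured neighbours of 20 listed, 7 fell, none rose and 12 did not pass, where 8.95% of all genes were lower and 9.55% higher. Among genes above the median signal, tested alone, 17.2% were lower and 21.6% higher. The neighbours that fell, other than PRAC1, lay above the median of all genes in shNT, and the part of signal in their share was not tested. The median log2 fold change was -0.21. PRAC1, a small prostate and colon gene that lies inside the HOXB cluster between HOXB9 and HOXB13, had 25.2, 24.95 and 33.9 in shPKCi, against 42.8, 38.1 and 38.2 in shNT. Every shPKCi value was below the shNT values, with a log2 fold change of -0.52 (SE 0.13, limma adjusted p = 0.0243). PRAC1 was above the olfactory receptor level in shNT and not in shPKCi. Its call was lost without shPKCi replicate 1 (adjusted p = 0.102), shPKCi replicate 2 (0.107), shNT replicate 1 (0.0866) or shNT replicate 3 (0.0545).

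PRAC1 is flanked by HOX genes that overlapped between the lines, and its promoter is shown for contrast with that of HOXD10. These 250 bases before its start are on the minus strand of GRCh38.p14, chr17:48722519-48722768, from RefSeq, with each CG in capitals.
PRAC1: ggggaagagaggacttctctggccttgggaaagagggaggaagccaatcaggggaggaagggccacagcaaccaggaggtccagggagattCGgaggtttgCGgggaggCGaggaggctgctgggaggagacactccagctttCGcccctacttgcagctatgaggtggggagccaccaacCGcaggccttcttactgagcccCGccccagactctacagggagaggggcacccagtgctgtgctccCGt
It holds 7 CG, and 58.9% of all windows hold as many or more.

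The other 6 neighbours that fell lie outside the clusters. CALCOCO1, an autophagy receptor gene next to the HOXC cluster with 0 coding genes between, had 64.4, 66.5 and 76.0 in shPKCi, against 99.97, 128.0 and 98.5 in shNT. It was lower in every shPKCi array, with a log2 fold change of -0.65 (limma adjusted p = 0.00648). CBX5, the gene of heterochromatin protein HP1 alpha on the other side of that cluster, fell by 0.38. Beyond the HOXD cluster, LNPK, of endoplasmic reticulum junctions, fell by 0.61 and the transcription factor gene ATF2 by 0.49. HIBADH, an enzyme gene of valine breakdown near the HOXA cluster, fell by 0.59, and CALCOCO2, another autophagy receptor gene, near HOXB, by 0.46. Limma adjusted p for these 5 lay between 0.00304 and 0.0214. None of the 5 borders its cluster: CBX5, LNPK, HIBADH and CALCOCO2 have 1 coding gene between, and ATF2 has 3.

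EVX1 and EVX2, the even-skipped homeobox genes at the posterior ends of HOXA and HOXD, had log2 fold changes of -0.05 and -0.02 with overlapping groups. The calls of CALCOCO2, CBX5 and LNPK depended on the arrays used. CALCOCO2 lost its call without any single array except shNT replicate 2 (adjusted p up to 0.0669). CBX5 lost it without shPKCi replicate 1, 2 or 3 (up to 0.0876), and LNPK without shPKCi replicate 3, shNT replicate 1 or shNT replicate 3 (up to 0.0726).

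**Figure D3:**
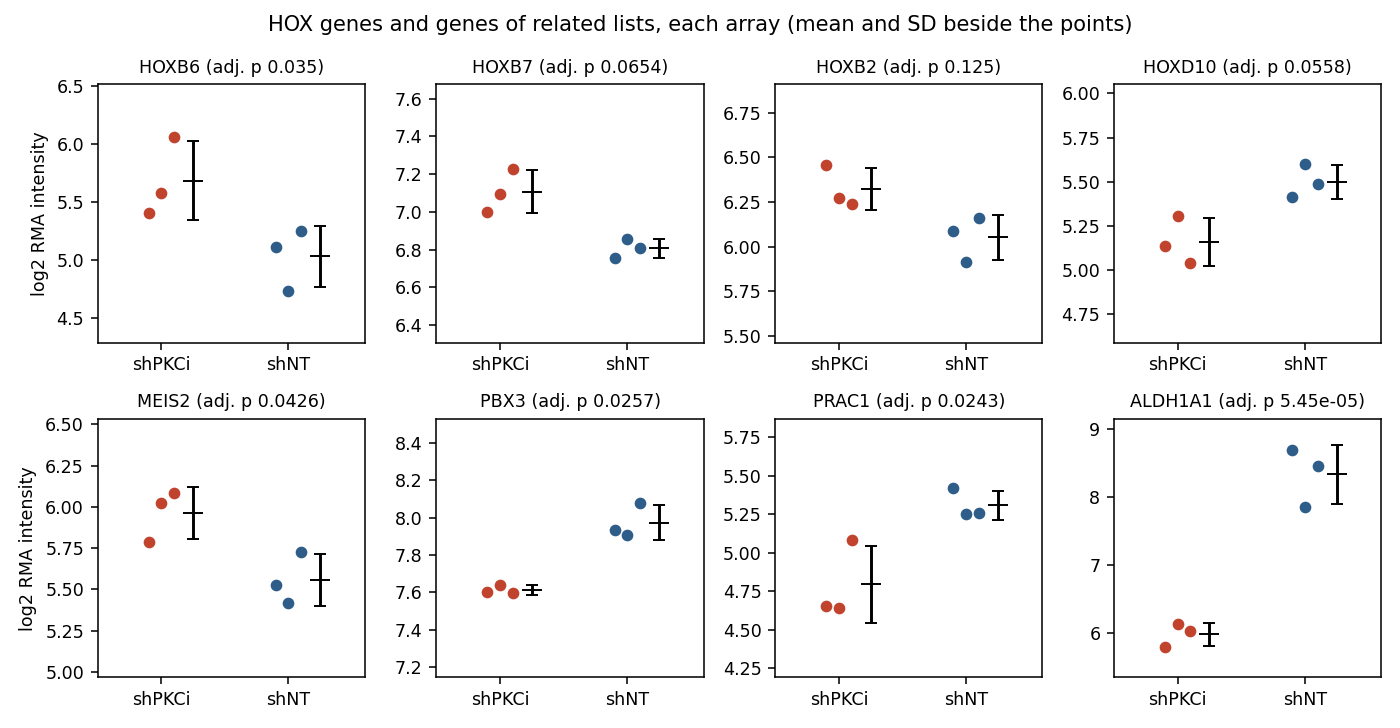
Log2 RMA intensity of 8 genes in the 3 shPKCi arrays (red, left) and the 3 shNT arrays (blue, right), with the mean and SD in black and limma adjusted p in each title; vertical axes differ between panels and do not start at 0. HOXB6 and MEIS2 are higher and PBX3, PRAC1 and ALDH1A1 lower in shPKCi, while HOXB7, HOXB2 and HOXD10 have groups apart and did not pass.

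Genes of the complexes that open and close HOX chromatin were called in both directions. Of 27 measured Polycomb subunit genes, 1 rose and 3 fell, against 9.55% higher and 8.95% lower among all genes, so the fallen share was near that of all genes. The median log2 fold change was -0.03. EZH1, a histone H3 lysine methyltransferase, fell by 0.77 (limma adjusted p = 0.00127), and PCGF2 and PHC1, of the complex that compacts chromatin, fell by 0.43 each. MTF2, which guides the methyltransferase complex to CpG-rich DNA, rose by 0.39 (adjusted p = 0.0238). EZH2, the methyltransferase of dividing cells, had a log2 fold change of 0.27 (limma adjusted p = 0.13).

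The calls of PCGF2, PHC1 and MTF2 were lost in fits without single arrays. PCGF2 lost its call without shPKCi replicate 1, 2 or 3 (adjusted p up to 0.0651), and PHC1 without shPKCi replicate 1 or 2 (up to 0.0927) or when its most variable probe set was used, at a log2 fold change of -0.82 (adjusted p = 0.0554). MTF2 lost its call without shPKCi replicate 1, 2 or 3 or shNT replicate 3 (up to 0.0878).

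Of 24 measured trithorax, menin and elongation complex genes, 3 rose and 5 fell, where 9.55% of all genes were higher and 8.95% lower. The dimmest of the 24 lay at the 47.5th percentile of signal in shNT. Among genes above the median signal, tested alone, 21.6% were higher and 17.2% lower. WDR5 and RBBP5, core subunits of the methyltransferase complexes that mark active HOX genes, rose by 0.44 and 0.56 (limma adjusted p = 0.00921 and 0.00797). KDM6A, a demethylase that removes the Polycomb mark, fell by 0.75 and AFF1, an elongation factor and fusion partner of KMT2A in leukaemia, by 0.55 (adjusted p = 0.00918 and 0.00624). KMT2A itself, the founding HOX activator, had a log2 fold change of -0.28 (limma adjusted p = 0.0873).

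The boundary factor gene CTCF rose by 0.57 (limma adjusted p = 0.00272) and the cohesin subunit gene STAG1 by 0.58 (adjusted p = 0.0116). They were 2 of 9 measured genes of the geminin, CTCF and cohesin list, of which none fell, where 9.55% of all genes were higher and 8.95% lower. All 9 lay at or above the 74.1st percentile of signal in shNT. Among genes above the median signal, tested alone, 21.6% were higher, so the share of this list was near that of bright genes. None of the 15 regionalising homeobox genes passed limma, and at an unadjusted p under 0.05 the counts were 0 higher and 0 lower.

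The retinoid list held ALDH1A1, with the largest fold change of any gene in the lists given here. Of 16 measured genes of 19 listed, 1 rose, 3 fell and 12 did not pass, where 9.55% of all genes were higher and 8.95% lower. ALDH1A1, an enzyme that makes retinoic acid, had 55.4, 69.5 and 64.7 in shPKCi, against 413.9, 230.7 and 350.5 in shNT. Every shPKCi value was below every shNT value, and the gene was 5.12-fold lower (log2 fold change -2.36, SE 0.19, limma adjusted p = 5.45e-05).

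CRABP2, which carries retinoic acid to its nuclear receptors, was at 159.8, 193.3 and 223.7 in shPKCi, against 469.7, 401.2 and 384.5 in shNT. It fell by 1.13 on the log2 scale (SE 0.14, limma adjusted p = 0.000546). DHRS3, a retinaldehyde reductase gene that retinoic acid induces, fell by 0.45, and RDH10, which makes retinaldehyde, rose by 0.66 (adjusted p = 0.0177 and 0.00209). DHRS3 lost its call without shPKCi replicate 1, 2 or 3 (adjusted p up to 0.0656). ALDH1A3, another retinoic acid enzyme gene, had a log2 fold change of -0.23 (limma adjusted p = 0.114).

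**Figure D4:**
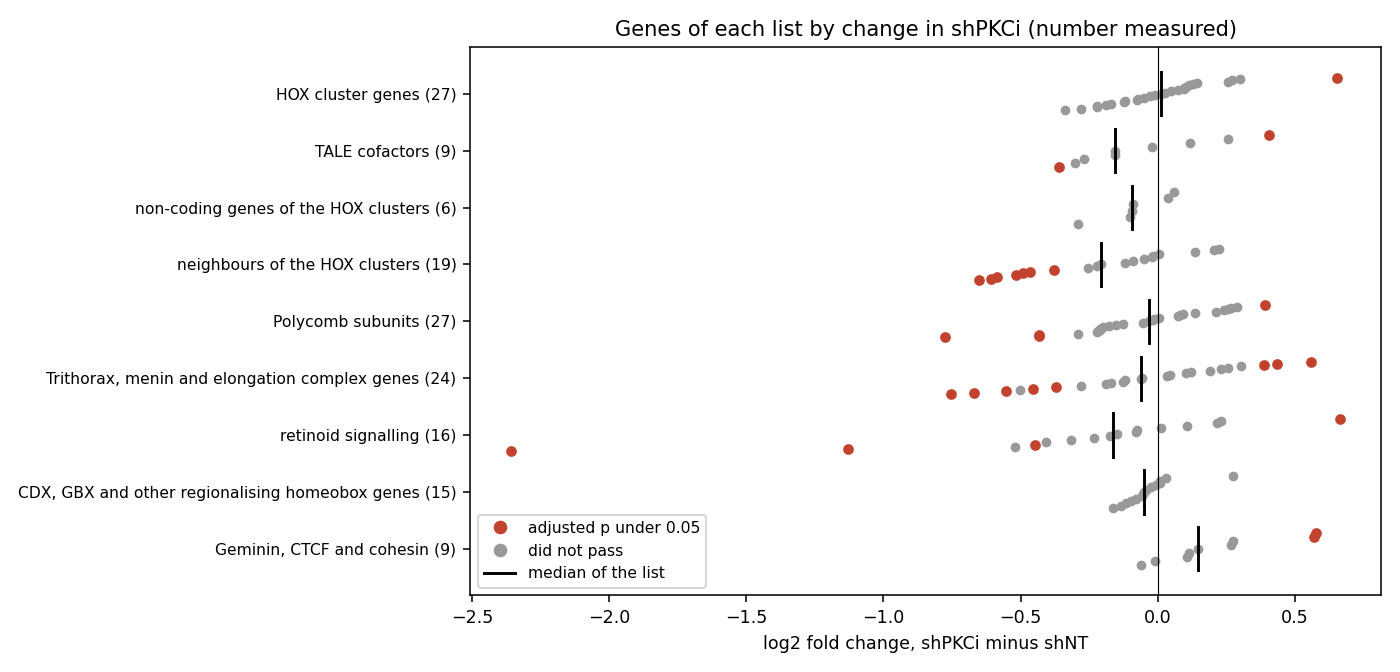
Log2 fold change, shPKCi minus shNT (horizontal axis), of each measured gene in the HOX clusters and in 8 related lists (rows, number measured in brackets), with called genes in red and the list's median as a bar. The HOX genes have 1 called gene of 27, the neighbours 7 of 19, all lower, and ALDH1A1 at -2.36 lies farthest left.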

How the data were processed

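Each deposited value is the intensity of a probe set on a linear scale, 32321 a sample. The submitters' processing notes name RMA, a method that corrects background, normalizes between arrays and summarises probes. No version, software or build stood in the sources used here. Intensities were taken to log2, and the linear scale was read from the values. GEO's platform annotation gave a single symbol for 19158 probe sets and several for 1388, and 11775 were absent from it. The single-symbol probe set of highest mean stood for each of 18404 genes, and no filter on low values was applied. The 27 HOX symbols matched RefSeq by Entrez identifier.

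shPKCi was compared with shNT by limma 3.58.1 (lmFit, eBayes) in R 4.3.3 on all 6 arrays, with Benjamini-Hochberg adjustment over all 18404 genes and a threshold of 0.05. The fit was also run on 20 simulated data sets with 200 changed genes. Fewer genes changed there than were called here, so those runs do not measure its accuracy for the HOX changes. The number of arrays limits the precision. Genes were named by rule: PRKCI, every HOX gene above background or past the threshold, the other HOX genes by symbol, all passing cofactors, non-coding genes and neighbours, and up to 4 passing genes with the smallest adjusted p of each other list. Other genes named without passing were chosen after their values were seen. The members, lists and rule were chosen with earlier results of these data known.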

Additional observations from a re-analysis of the deposited data

How the results depend on the processing

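Precision was limited by 3 arrays a group, and the level of background by the genes used to gauge it. Most HOX genes were dim, and the part of dim signal in the precision was not tested. The count of HOX genes higher in shPKCi was 1, and it was 0 to 1 over the 6 fits without 1 array, 2 with median centring, 2 after cyclic loess, 2 with array weights, 2 among genes above the olfactory receptor level and 0 at an adjusted p under 0.01. The count lower was 0, and it was 1 among genes above the olfactory receptor level, where 18 HOX genes were tested; it was 0 in the other alternatives. The single gene called was HOXB7 and not HOXB6 without shNT replicate 2 and among genes above the median signal, where 6 HOX genes were tested and HOXB6 was not. HOX genes above background numbered 20 in each line. In shNT they were 18, 20 and 15 without replicate 1, 2 or 3, and in shPKCi 20, 20 and 19. Where every array of a line had to exceed the level, they were 17 in shPKCi and 15 in shNT. With the 99th percentile of olfactory receptor genes they were 8 in shPKCi and 9 in shNT, and with the median of all genes 6 and 4. With the highest regionalising homeobox gene, a level chosen after seeing the data, they were 0 and 0. The causes of these shifts were not tested. Deviations of same-numbered samples from their group means correlated at 0.12, -0.06 and -0.18, and 1 of 6 samples correlated best with its own number. Deviations within a group of 3 are not independent of each other. They cannot decide whether the replicate numbers pair the samples. With a replicate block HOXB6 had adjusted p = 0.011, the HOX counts were 1 higher and 0 lower, and over all genes 1537 were higher and 1441 lower, against 1758 and 1648; without shPKCi replicate 1, 2 or 3 the higher counts over all genes were 1072, 997 and 1165 and the lower counts 1057, 1048 and 1191. With the block PBX3 (adjusted p = 0.0612) and NCOA6 (0.05003) did not pass. Signs turned for genes near 0: HOXB4 had 0.026 with median centring, 0.023 after cyclic loess and 0.11 with array weights, HOXC5 0.048 and 0.020 and HOXC10 0.0061 and 0.0032 with the first and second of these. Without 1 array, log2 fold changes ran from -0.28 to 0.015 in HOXB1, -0.15 to 0.20 in HOXB4, -0.0075 to 0.17 in HOXB5, -0.16 to 0.064 in HOXB13, -0.15 to 0.10 in HOXC5, -0.34 to 0.0099 in HOXC9, -0.11 to 0.064 in HOXC10, -0.039 to 0.072 in HOXC12, -0.028 to 0.19 in HOXD3, -0.39 to 0.00094 in HOXD8, -0.034 to 0.10 in HOXD9 and -0.046 to 0.15 in HOXD11.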
